A study of Caenorhabditis elegans with 2 samples.

Results

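The 6 genes described here encode the cytoplasmic translation elongation factors of *Caenorhabditis elegans*: eef-1A.1, eef-1A.2, eef-1B.1, eef-1B.2, eef-1G and eef-2. They are 6 of the 19973 protein-coding genes on the nuclear chromosomes of WBcel235, the assembly that the files call ce11. They were chosen by name and by measured signal, after peaks of very high signal had been seen at eef-1G and eef-1A.2, so those peaks describe how the genes were chosen, and no test was run on them. All 6 names matched 1 annotated gene each.

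The data came from chromatin immunoprecipitation followed by sequencing (ChIP-seq) of a tagged ZTF-23, a protein with the gene class name for zinc finger putative transcription factors. One strain was used, in which CRISPR had inserted TY1, EGFP and 3xFLAG into ztf-23, and both samples were whole mid-stage embryos collected by egg bleaching, with an age of 1.5 hours per the labels. The precipitation used an anti-GFP antibody per the description, although the antibody label itself reads ztf-23. The 2 samples were biological replicates of 1 group, no control library was analysed here, and whole embryos do not show in which cells the protein was bound.

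Elongation is the step of translation in which the ribosome adds amino acids to the growing chain. eEF1A in its GTP form brings each aminoacyl-tRNA to the ribosome, and eEF1B, a complex with catalytic exchange subunits and a gamma subunit, returns eEF1A from its GDP to its GTP form. eEF2 then uses GTP to move the ribosome along the mRNA. In *C. elegans*, eef-1A.1 and eef-1A.2 both encode eEF1A, eef-1B.1 and eef-1B.2 encode subunits of eEF1B, eef-1G encodes its gamma subunit, and eef-2 encodes eEF2.

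The DNA under the strongest peaks is shown first, because the eef-1G and eef-1A.2 peaks shared a run of 15 bases. The run, AGGGGCACATACGCA, was the longest word common to the 50 bp on either side of both summits, the summit being the position of highest signal in a peak. Each line below is read 5′ to 3′ on the strand of the gene from the RefSeq copy of WBcel235. Capitals mark the word or a spaced form of it, defined below. The eef-1G line spans V:10965632-10965725 on the plus strand and ends with the last base of the word, and the eef-1A.2 line spans X:7823282-7823402 on the plus strand.
eef-1G: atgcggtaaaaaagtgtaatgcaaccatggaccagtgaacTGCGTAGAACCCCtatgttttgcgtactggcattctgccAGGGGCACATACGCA
eef-1A.2: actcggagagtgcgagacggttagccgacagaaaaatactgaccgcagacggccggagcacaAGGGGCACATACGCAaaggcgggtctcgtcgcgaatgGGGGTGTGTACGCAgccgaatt

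The word stood in the same direction as both genes. At eef-1G it lay at V:10965711-10965725, from 8 bp upstream to 6 bp downstream of the gene start and 19 to 33 bp downstream of the summit. At eef-1A.2 it lay at X:7823344-7823358, from 310 to 296 bp upstream of the gene start and 2 to 16 bp downstream of the summit. The capitals at the other end of each line mark spaced forms. In these, GGGG and TACGCA are parted by 4 bases of any kind (GGGGNNNNTACGCA, which the word itself contains) or by 3 (GGGGNNNTACGCA). These patterns were set after the lines had been read. At eef-1A.2 a second form with the 4-base gap lay 273 to 260 bp upstream of the gene start on the same strand. At eef-1G a form with the 3-base gap lay 47 to 35 bp upstream of the start on the opposite strand, so its capitals read in reverse complement.

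The regions at eef-1A.1, the paralogue of eef-1A.2, and at the 2 eef-1B genes are shown for contrast, and they hold no capitals because no form of the word was found in them. The eef-1A.1 line spans III:6972043-6972163 on the minus strand, the eef-1B.1 line III:7973391-7973511 on the minus strand, and the eef-1B.2 line IV:15037224-15037330 on the plus strand, where it stops before the gene start.
eef-1A.1: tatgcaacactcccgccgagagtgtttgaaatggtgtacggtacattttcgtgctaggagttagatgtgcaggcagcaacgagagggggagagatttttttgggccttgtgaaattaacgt
eef-1B.1: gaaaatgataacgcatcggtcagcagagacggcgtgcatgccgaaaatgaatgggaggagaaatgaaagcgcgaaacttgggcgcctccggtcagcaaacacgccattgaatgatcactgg
eef-1B.2: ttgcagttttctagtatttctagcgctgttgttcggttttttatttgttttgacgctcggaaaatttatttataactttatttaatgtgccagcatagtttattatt

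The word occurred at 5 places on both strands of the nuclear genome, and 4 of them were inside 3 of the 2213 nuclear peaks of the combined list that the authors named conservative. Besides eef-1G (rank 2 by signal) and eef-1A.2 (rank 8), the third was the peak of rank 4, upstream of icd-1, whose product belongs to the complex that meets nascent chains at the ribosome exit. It held the word once on each strand, in II:6588969-6589089, read on the plus strand. The fifth place, IV:4131740-4131754 on the minus strand, lay in no conservative peak. It was 4097 bp downstream of the nearest protein-coding start, that of F49F1.17. It fell in a region of the ranked list with signal 75.2 and rank 7400. Its line, labelled pseudogene intron, spans IV:4131687-4131807. The annotation in that label was not among the results computed here.
icd-1 peak: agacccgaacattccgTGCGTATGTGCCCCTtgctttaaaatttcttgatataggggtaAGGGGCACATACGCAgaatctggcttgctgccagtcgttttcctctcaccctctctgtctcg
pseudogene intron: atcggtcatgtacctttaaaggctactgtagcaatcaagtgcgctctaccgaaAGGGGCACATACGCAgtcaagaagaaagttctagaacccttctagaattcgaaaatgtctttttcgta

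The 15-base word at the fifth place was the same as at eef-1G, and the signal there was 75.2 against 17955 at eef-1G. The word was in 0.136% of the windows of 50 bp on either side of the 2213 summits (3 windows) and in 0.01% of all promoters of 300 bases (2 of 19973). These 2 promoters, of eef-1G and of the divergent gene ctf-4, overlap and held the same copy. A promoter was taken from 250 bp before to 50 bp after each gene start, and eef-1A.2's copy lay outside its own. Of the spaced forms, the one with the 4-base gap was in 0.316% of summit windows and 0.035% of promoters, and the one with the 3-base gap in 0.316% and 0.025%. A summit window is shorter than a promoter, so these shares are not per base and cannot be compared directly.

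The eef-1G and eef-1A.2 peaks were among 11 conservative peaks that held either spaced form, and all 11 were within the 25 strongest. The 2 forms had 93 matches at 86 distinct places in the nuclear genome, since 7 places matched both, and 18 of the places were inside a conservative peak. Among the 9 strongest peaks 7 held at least 1 form. No summit window below rank 100 held either form. Of the parts of the word taken alone, GGGGCACA was in 0.587% of summit windows and 0.34% of promoters, and TACGCA in 6.33% and 6.41%. Here too the summit windows are shorter than the promoters, so near-equal shares do not mean equal density. The patterns came from the peaks they are counted in, so these shares are a description, and a match is not shown to be a binding site.

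**Figure D1:**
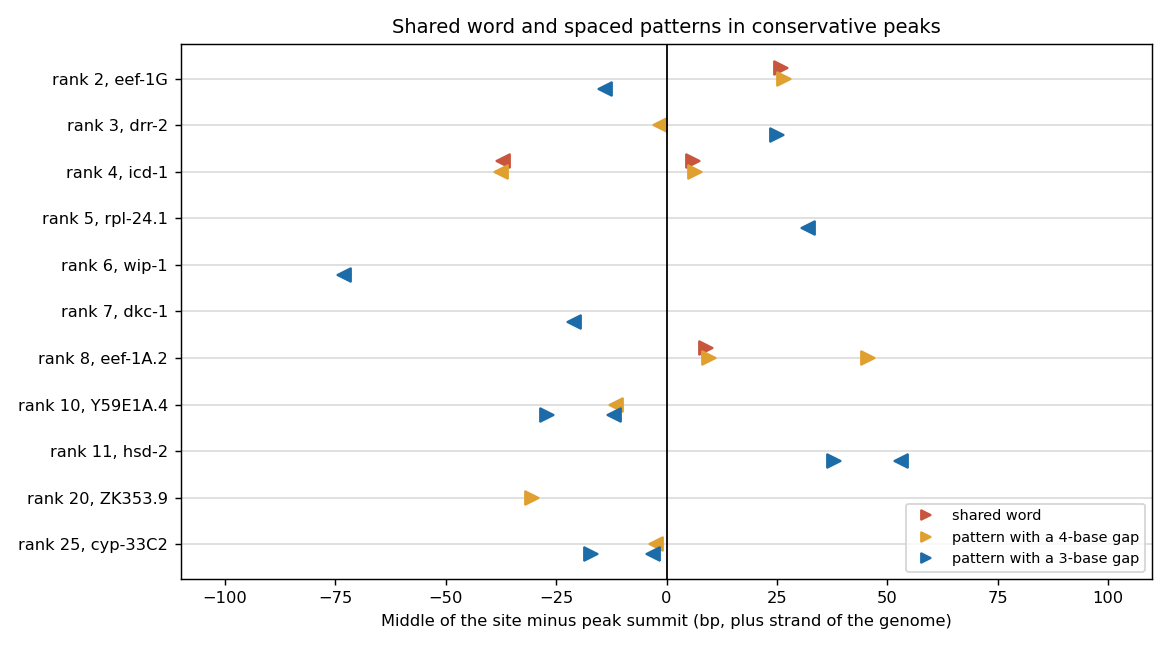
Position of the middle of each site relative to the peak summit, in bp on the plus strand of the genome, for the 11 conservative peaks that hold the shared word or a spaced form. Each row is a peak with its rank by signal and nearest protein-coding gene, colours mark the form and triangles point along the strand. The nearest gene can be far away. Sites lay 6272 bp from Y59E1A.4 (rank 10), 2628 bp from ZK353.9 (rank 20) and 2195 bp from cyp-33C2 (rank 25). The word contains the form with the 4-base gap, so both symbols appear at ranks 2, 4 and 8, a place that matches both spaced forms has a symbol for each, and rank 8 (eef-1A.2) has a second form downstream of the first.

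For the other 4 genes, neither the word nor a spaced form was found within 1000 bp of the gene start. In the 300-base promoters the closest match to the word had 7 mismatches at eef-1A.1, 7 at eef-1B.1, 6 at eef-1B.2 and 6 at eef-2. A match of this kind is common, since 99.3% of all such promoters hold one with at most 7 mismatches and 68.5% one with at most 6. The eef-1A.1 summit lies outside its promoter window. The eef-1A.2 promoter, which does not reach that gene's copy of the word, also had 7 mismatches. This promoter measure therefore did not set the 4 genes apart from eef-1A.2. Within 1000 bp of the start, the closest match had 6 mismatches at eef-1A.1, 5 at eef-1B.1, 6 at eef-1B.2 and 4 at eef-2. No share over all genes was computed for that wider window. Base composition differed between the windows of 50 bp on either side of each gene's strongest summit in the combined ranked list. In these summit windows G and C made up 46.5% of the bases at eef-1G, 60.4% at eef-1A.2 and 50.5% at eef-1A.1. The share was 49.5% at eef-2, 55.4% at eef-1B.1 and 28.7% at eef-1B.2. The median over conservative summits was 49.5%, with 10th and 90th percentiles of 37.6% and 58.4%, so eef-1B.2 lay below and eef-1A.2 above that range.

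Peaks in the conservative list lay within 1000 bp of the start of 4 of the 6 genes, eef-1G, eef-1A.2, eef-1A.1 and eef-2. Over all protein-coding genes the share was 7.2% (1439 of 19973). Since peaks led to the choice of the genes, nothing is read from that difference. The other combined thresholded list held the same 4 genes against 7.68% of all genes. Replicate 1's own list held eef-1G and eef-1A.2 against 3.57%, and replicate 2's own list held these and eef-1A.1 against 4.58%. Neither eef-1B gene was in any thresholded list, and eef-2 was in the combined lists without being in either replicate's own list. The combined ranked list, which holds regions down to very low signal, had 16 regions within 1000 bp of the 6 starts, and its second version had 15. Over all 8 lists there were 59 summits, 13 at eef-1A.1, 8 at eef-1A.2, 6 at eef-1B.1, 10 at eef-1B.2, 12 at eef-1G and 10 at eef-2. The lists overlap, so these totals count the same region more than once. The 8 at eef-1A.2 were 1 region in each list.

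**Figure D2:**
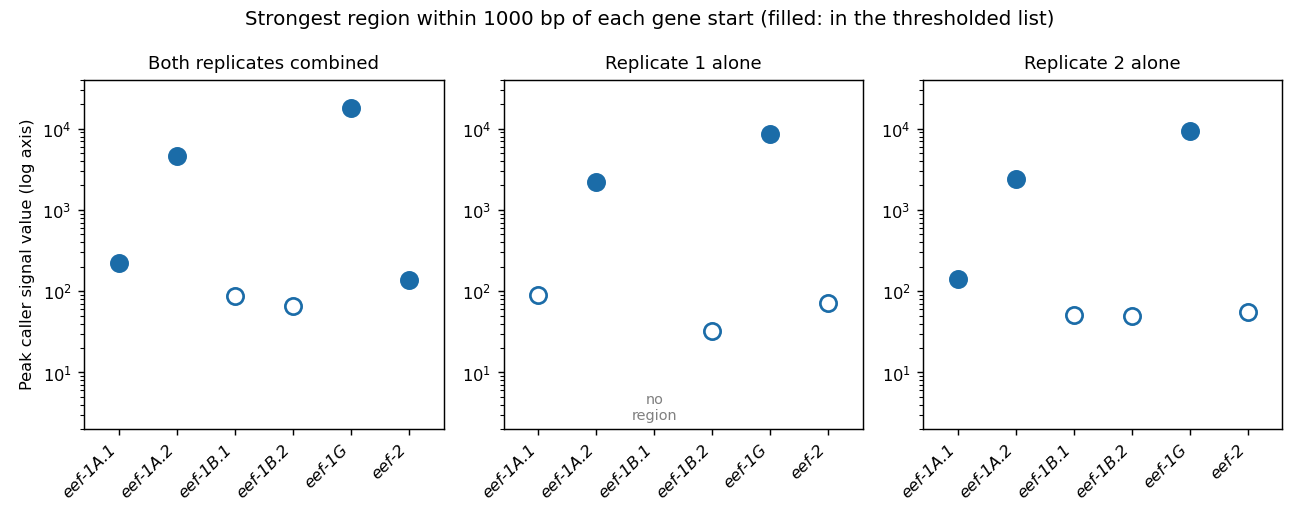
Signal value of the strongest region within 1000 bp of each gene start, on a log axis, in the combined ranked list (left) and in each replicate's ranked list (middle and right). Filled circles are regions that are also in the matching thresholded list and open circles are not. All panels have the same axis range, but signals are to be compared only within a panel. eef-1G and eef-1A.2 stand above the other 4 genes in each panel, and replicate 1 has no region at eef-1B.1.

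Of the 2 genes for eEF1A, eef-1A.2 had one of the strongest peaks of the series and eef-1A.1 a peak of rank 404. The peak upstream of eef-1A.2 (WBGene00001169, X:7823654-7825769, plus strand) spanned X:7823127-7823566 and its highest point was 312 bp upstream of the start. Its signal was 4569 in the combined list, 2195 in replicate 1 and 2375 in replicate 2, so the replicate 2 value was 1.08 times that of replicate 1. It ranked 8 in both combined thresholded lists and in both replicates' own lists. It was the only region within 1000 bp of this start in any list, and its summits in the 2 replicates were 302 and 306 bp upstream. The nearest annotated start was that of the ncRNA gene R03G5.8 on the opposite strand, 183 bp away, and the summit lay outside that gene. The peak interval covered all of R03G5.8 (X:7823385-7823525), so the peak cannot be given to eef-1A.2 alone.

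At eef-1A.1 (WBGene00001168, III:6970026-6971712, minus strand) the strongest region was a conservative peak at III:6971931-6972274 with a summit 391 bp upstream. Its signal was 223 in the combined list (rank 404), 90.1 in replicate 1 and 141 in replicate 2, a replicate ratio of 1.56. Replicate 2's own list held it at rank 326, and its −log10 IDR in that replicate's ranked list was 3.94. IDR is the irreproducible discovery rate, computed from the agreement of ranks between replicates or between parts of 1 replicate, and regions in the combined thresholded lists had a −log10 IDR of at least 2. In replicate 1's ranked list the region had rank 637 by signal with a −log10 IDR of 0.08, and it was not in that replicate's own list. This summit was closer to other genes: it lay 18 bp upstream of the start of the microRNA gene cel-mir-5549 and 150 bp upstream of rfc-4, a divergent gene for a replication factor C subunit. The peak therefore cannot be given to eef-1A.1 alone.

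The 2 remaining combined regions at eef-1A.1 lay inside its coding sequence. Their summits were 747 and 520 bp downstream of the start, with signals of 38.1 (rank 42573) and 15.6 (rank 83282). Replicate 1 had a region 605 bp downstream with signal 25.4, and replicate 2 one 632 bp downstream with signal 13.8. The median signal of the ranked lists was 32.3 in the combined list, 22.8 in replicate 1 and 26.5 in replicate 2, so all these regions were near or below the middle of their list.

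The 2 eEF1A proteins are the same over their whole length, with 463 of 463 residues identical in the RefSeq genome's translation. Their coding sequences shared 1305 of 1389 bases (94%), with a longest common run of 53 bases. The 500 bp upstream of the 2 starts, by contrast, aligned with 43.4% identity and shared no run longer than 11 bases. No identity was computed for upstream sequences of unrelated genes, so 43.4% is not shown to be a likeness. The same longest run, 11 bases, was found between the 2 peak intervals. Rank by signal in the combined ranked list was 9 for eef-1A.2 and 505 for eef-1A.1, which is 496 ranks apart. The distance was 629 ranks in replicate 1 and 414 in replicate 2, with eef-1A.2 ahead in both.

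**Figure D3:**
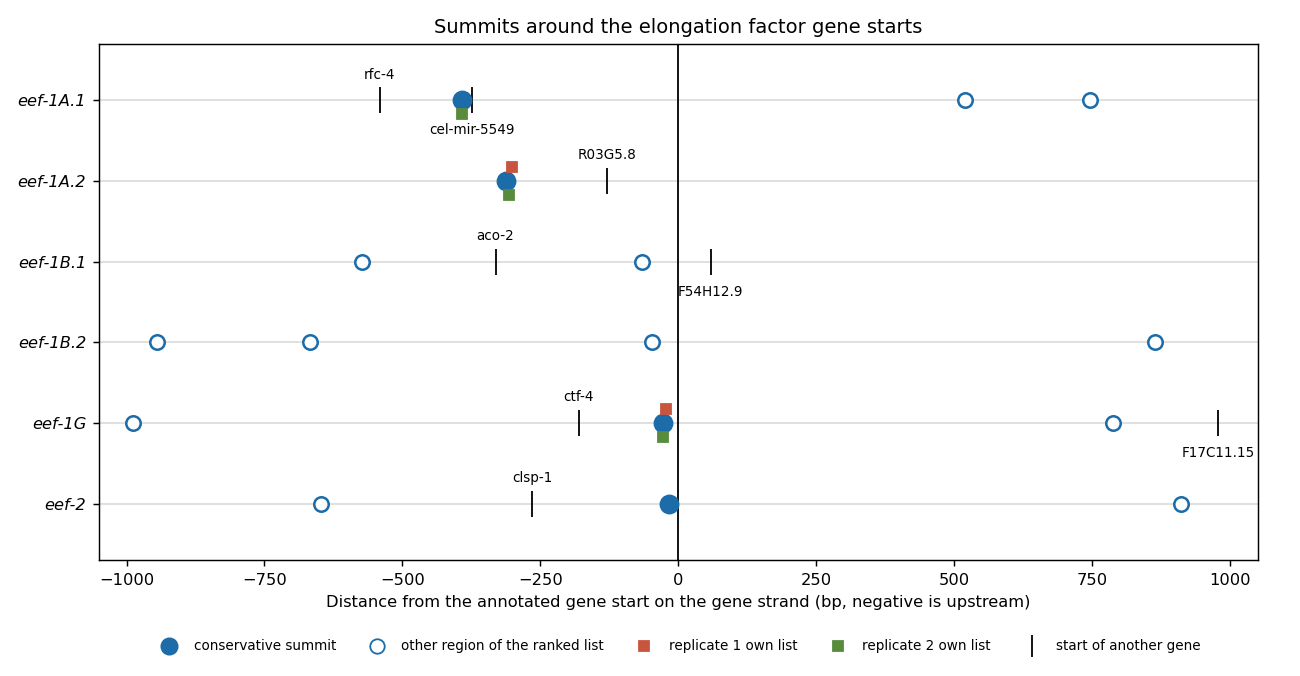
Summits within 1000 bp of each gene start, by distance in bp on the gene's strand, with upstream to the left. Large filled circles are conservative summits, open circles the other regions of the combined ranked list, squares the summits in each replicate's own list and vertical ticks the starts of other genes. The eef-1G and eef-2 summits lie 27 and 17 bp upstream of the gene start, nearer to it than to any other start, while those of eef-1A.2 and eef-1A.1 lie 312 and 391 bp upstream and nearer to the start of another gene.

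Neither gene of the eEF1B exchange subunits had a thresholded peak. At eef-1B.1 (WBGene00018846, III:7972382-7973386, minus strand) the strongest combined region, III:7973279-7973622, had signal 87.3, rank 4068 and a summit 65 bp upstream of the start. Its −log10 IDR was 1.23 in one combined ranked list and 0.57 in the other, below the 2 of the thresholded lists. Replicate 2 had a region there with signal 50.7 (rank 4098, summit 13 bp upstream), and replicate 1's ranked list had no region within 1000 bp of the start. The summit lay inside the ncRNA gene F54H12.9 on the opposite strand, and 266 bp upstream of aco-2, the divergent gene for mitochondrial aconitase. A weaker combined region had its summit 574 bp upstream, with signal 38.2, and a replicate 2 region its summit 562 bp upstream, with signal 21.9.

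At eef-1B.2 (WBGene00012768, IV:15037331-15039551, plus strand) the strongest combined region, IV:15037112-15037455, had signal 66.6, rank 11439 and a summit 47 bp upstream of the start. The −log10 IDR was 1.21 and 1.15 in the 2 combined ranked lists. Replicate 1 had a region with signal 31.9 (rank 13985, summit 153 bp upstream) and replicate 2 one with signal 49.9 (rank 4332, summit 146 bp upstream). The replicate summits thus lay 106 and 99 bp farther upstream than the combined one. The other combined regions had summits 944 and 667 bp upstream and 865 bp downstream, with signals of 11.2, 12.2 and 33.1. No other gene started within 1000 bp of this summit.

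The 2 eEF1B genes were less alike in protein than the eEF1A pair. The 213 residues of eef-1B.1 and the 263 of the most similar eef-1B.2 isoform had 150 identical residues in 265 aligned columns (56.6%). Their upstream 500 bp aligned with 43.6% identity, again with a longest common run of 11 bases and no value for unrelated genes. eef-1B.1 was ahead by 7371 ranks in the combined ranked list and by 234 in replicate 2. Both signals in replicate 2, 50.7 and 49.9, were close, and replicate 1 gave no value for eef-1B.1, so an order between the 2 genes did not rest on both replicates.

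The gamma subunit gene eef-1G (WBGene00008920, V:10965719-10967922, plus strand) had the strongest peak of the 6 genes. It spanned V:10965423-10965966, 544 bp against a median of 344 bp over conservative peaks, with a summit 27 bp upstream of the start. Its signal was 17955 in the combined list, 8496 in replicate 1 and 9477 in replicate 2, a replicate ratio of 1.12. It ranked 2 in every list that held it, and its summits in the replicates were 23 and 28 bp upstream of the start. The divergent gene ctf-4, for a protein of the replication fork, started 153 bp from the summit, so the eef-1G start was the nearer. The peak interval covered the ctf-4 start (V:10965539) as well as that of eef-1G, so the peak cannot be given to eef-1G alone. The 2 other combined regions within 1000 bp, with summits 989 bp upstream and 788 bp downstream, had signals of 56.9 and 2.88.

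In the conservative list the eef-1G peak stood below the peak at the ncRNA gene Y38F2AR.16 (signal 19377.9, rank 1, 47 bp from that start and 301 bp upstream of trap-3). It stood above the peak between the divergent genes drr-2 and set-16 (17132, rank 3). That summit was 170 bp upstream of drr-2, and a spaced form in the peak was 151 bp upstream of set-16. The eef-1A.2 peak stood between the peak at K01G5.11 (7410, rank 7, 31 bp from that start and 228 bp upstream of dkc-1) and that of tasp-1 (3088, rank 9). The tasp-1 peak was the last of a group of 9 that was set apart after the values were seen, and the next peak outside it had signal 1825. The 9 peaks were 395 to 667 bp wide, and only 12 conservative peaks exceeded the median width. The width and the signal of a peak come from the same caller and are not independent.

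For eef-2 (WBGene00001167, I:9163531-9166952, plus strand), the gene of the translocation factor, the conservative peak was modest. It spanned I:9163342-9163685 with a summit 17 bp upstream of the start. Its signal was 137 in the combined list (rank 952), close to the median of 128 over conservative peaks, 70.9 in replicate 1 and 54.8 in replicate 2. Here replicate 2 was the lower, with a ratio of 0.773. In the replicates' ranked lists the region had rank 944 and rank 3076, with −log10 IDR values of 1.09 and 1.01, and the summits were 2 bp downstream and 10 bp upstream of the start. The combined lists gave it 2.53 and 2.74. The divergent gene clsp-1, a claspin homologue, started 248 bp from the summit. Another region 647 bp upstream had signal 48.6, and one 912 bp downstream had signal 16.5 in only 1 of the 2 combined ranked lists.

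In order of combined signal the genes were eef-1G, eef-1A.2, eef-1A.1, eef-2, eef-1B.1 and eef-1B.2. The first 4 places were the same in both replicates. In replicate 1 eef-2 was followed by eef-1B.2, with no region for eef-1B.1, and in replicate 2 the last 3 signals lay close together, between 49.9 and 54.8. Within a replicate, the log2 ratio of signals was 1.97 ± 0.03 for eef-1G over eef-1A.2 and 4.34 ± 0.38 for eef-1A.2 over eef-1A.1 (mean ± SD, n = 2). It was 0.85 ± 0.72 for eef-1A.1 over eef-2 and 0.64 ± 0.72 for eef-2 over eef-1B.2, where the SD was close to the mean or above it. An SD over 2 replicates is imprecise.

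Other genes of elongation and of its factors were looked up in a list of 13 names, of which 10 matched an annotated gene. A conservative summit lay within 1000 bp of 2 of the 10, where the share over all protein-coding genes was 7.2%. At iff-2, for eIF5A, which helps the ribosome past difficult peptide bonds, the signal was 366 (rank 165), with 139 in replicate 1 and 221 in replicate 2 and a summit 76 bp upstream. At gfm-1, for the mitochondrial elongation factor G, the signal was 173 (rank 648), with 93.4 and 76.7 in the replicates and a summit 160 bp upstream. Both were in both replicates' own lists, unlike eef-2 and eef-1A.1. The elongation factor 2 kinase gene efk-1 had signal 32.7, the second eIF5A gene iff-1 68.9, the mitochondrial EF-Tu gene tufm-1 45.3 and the mitochondrial EF-Ts gene tsfm-1 47.2, all in the ranked list alone. The second EF-Tu gene, tufm-2, was just outside the threshold, with signal 98.4 and a score of 816 where the conservative list begins at 830. Of the diphthamide synthesis genes, whose products modify eEF2, dph-1 had 68.2, dph-2 40.1 and dph-3 no region.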

How the data were processed

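The authors' 8 peak lists on ce11, per the labels, were the starting point: for both replicates combined (2 versions) and for each replicate, a ranked list and a thresholded one. The notes deposited with the files name 1 more input for the thresholded lists than for the ranked ones. The signal deposited by the authors is the peak caller's, on a scale not stated; it ranked peaks within a list. The score deposited by the authors starts at 830 in the conservative list, and the −log10 IDR was read as deposited by the authors. The sources used here give no aligner, peak caller or read depth. The combined ranked lists also hold 4 signal columns of single replicates or pseudo-replicates, which were not used; replicate signals came from each replicate's own ranked list.

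Gene starts came from the Ensembl annotation of WBcel235 and sequences from the RefSeq genome; every region ended within its chromosome. Ranks used nuclear regions, and coordinates are 1-based. A gene was counted when a summit lay within 1000 bp of its start. Alignments were global, with Biopython 1.88, and other steps used Python 3.11.15, pandas 2.3.3 and numpy 2.4.6; the searches were tested on simulated data. The named genes were the 6 members, the conservative peaks next to theirs in rank, the other gene starts within 1000 bp of their summits, and a list of other elongation genes. The members and lists were chosen with earlier results of these data known. With 1 group there was no test and no p-value.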

Additional observations from a re-analysis of the deposited data

How the results depend on the processing

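The count of 4 genes with a peak was also 4 with the other combined list, with windows of 500 and 2000 bp, with any transcript start and with the peak interval in place of the summit. It was 2 when each summit was given to the nearest start of any gene (eef-1G and eef-2), and 2 to 3 in the list of a single replicate, where 2 genes were left without replicate 2 and 3 without replicate 1. The rank distance of the eEF1A pair (496) stayed between 414 and 629. That of the eEF1B pair (7371) was 7354 in the other combined ranked list and 234 without replicate 1; without replicate 2 it had no value, since eef-1B.1 had no region there. The cause was not tested. The word was 15 bases long with windows of 100 bp, with the other combined list and without either replicate; no word of 16 bases was shared. Its 5 places became 7 or 5 with a base dropped from its first or last end, and 12 with at most 1 mismatch, a setting chosen after seeing the data. No paired analysis was possible because there was 1 group. Depth is unknown, so no interval or detection limit can be given, and a gene without a region is not shown to be unbound.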
